A study of Mus musculus with 10 samples.

Results

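The genes described here are 35 genes of antigen presentation and of the interferon gamma response, measured in cells of the lymphatic vessel wall, the lymphatic endothelial cells (LEC). They were chosen by symbol from a gene table of 23510 rows, and all 35 were present and tested. The list was split into 15 genes of the class I pathway, 9 genes of the class II pathway, and 11 genes made up of 9 interferon-induced GTPases with the regulators Irf1 and Socs1. The LEC came from MT-ret melanoma, a mouse tumour that was implanted as fragments on the flank of C57BL/6N mice, and were sorted by flow cytometry. A group of 5 mice was injected with anti-Ang2, an antibody against the endothelial growth factor angiopoietin-2, and a group of 5 mice with control IgG. Both groups carried the tumour, received a single kind of antibody by the same route and were killed 12 hours later. There was 1 library per mouse, prepared with 0.5 ng of input RNA, so the spread between libraries holds that between mice as well as that of sorting and cDNA amplification.

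Interferon gamma acts through a cell surface receptor and the kinases Jak1 and Jak2, and its target promoters can hold gamma-activated sites (GAS). Irf1, itself induced, binds interferon-stimulated response elements (ISRE). The response raises the class I machinery, the class II transactivator Ciita and large families of GTPases that attack intracellular pathogens. Class I molecules show peptides from the proteasome to CD8+ T cells, class II molecules show peptides from endosomes to CD4+ T cells, and LEC are known to do both in lymph nodes and tumours.

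The promoters of 5 members, 4 of them GTPases or regulators that varied together between mice and 1 of class I, are printed here to show the letters of both elements. Each is the RefSeq window from 250 bases before to 50 bases after a transcript start in GRCm38.p6, and capitals mark matches on either strand to the GAS letters TTCNNNGAA or the ISRE core letters GAAANNGAAA. Igtp lies on the plus strand at chr11:58199306-58199605, Gbp2 on the plus strand at chr3:142620413-142620712 and Gbp5 on the plus strand at chr3:142496684-142496983. Irf1 lies on the plus strand at chr11:53769764-53770063 and B2m on the plus strand at chr2:122147437-122147736.
Igtp: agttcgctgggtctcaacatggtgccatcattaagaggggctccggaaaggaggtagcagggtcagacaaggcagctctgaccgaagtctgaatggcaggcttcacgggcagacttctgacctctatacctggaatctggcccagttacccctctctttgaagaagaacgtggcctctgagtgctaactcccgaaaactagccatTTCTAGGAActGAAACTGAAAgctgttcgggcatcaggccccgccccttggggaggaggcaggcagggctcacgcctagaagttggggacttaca
Gbp2: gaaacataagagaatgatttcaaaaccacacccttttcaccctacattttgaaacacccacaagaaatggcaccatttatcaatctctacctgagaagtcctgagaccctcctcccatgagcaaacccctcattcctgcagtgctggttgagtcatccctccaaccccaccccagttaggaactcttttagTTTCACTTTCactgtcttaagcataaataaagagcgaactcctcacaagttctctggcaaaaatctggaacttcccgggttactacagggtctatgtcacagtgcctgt
Gbp5: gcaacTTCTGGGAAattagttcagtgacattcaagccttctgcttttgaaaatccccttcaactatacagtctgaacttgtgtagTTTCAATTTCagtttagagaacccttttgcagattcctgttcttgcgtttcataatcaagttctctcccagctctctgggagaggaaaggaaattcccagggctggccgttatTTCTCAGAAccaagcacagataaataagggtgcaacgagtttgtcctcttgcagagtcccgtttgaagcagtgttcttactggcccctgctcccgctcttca
Irf1: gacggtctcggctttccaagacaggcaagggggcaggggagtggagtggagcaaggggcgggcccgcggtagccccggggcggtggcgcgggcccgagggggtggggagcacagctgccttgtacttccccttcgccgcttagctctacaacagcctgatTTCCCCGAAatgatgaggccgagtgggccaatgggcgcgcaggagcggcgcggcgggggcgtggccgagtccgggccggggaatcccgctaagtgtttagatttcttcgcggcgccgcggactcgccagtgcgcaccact
B2m: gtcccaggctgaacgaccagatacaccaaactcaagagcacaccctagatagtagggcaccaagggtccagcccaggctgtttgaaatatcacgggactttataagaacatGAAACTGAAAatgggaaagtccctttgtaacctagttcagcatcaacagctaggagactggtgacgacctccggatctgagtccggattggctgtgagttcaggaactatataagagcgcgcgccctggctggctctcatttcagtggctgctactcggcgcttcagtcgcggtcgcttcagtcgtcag
In Igtp the GAS begins 45 bases and the ISRE 34 bases before the start. Gbp2 holds 1 ISRE and no GAS, Gbp5 holds 2 GAS and 1 ISRE, Irf1 holds 1 GAS and no ISRE, and B2m holds 1 ISRE and no GAS. A RefSeq window was matched for 27 of the 35 members. Of 9 matched GTPases and regulators 5 held a GAS and 8 an ISRE, of 12 matched class I genes 1 held a GAS and 4 an ISRE, and of 6 matched class II genes 0 held a GAS and 1 an ISRE. Of all 27025 genes with a window, 9.55% held a GAS and 3.99% an ISRE. These matches describe letters only.

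The libraries held 38090933 to 83850341 gene counts. All 10 listed LEC markers were detected in every library, and their summed level ran from 15214 to 20312 CPM (counts divided by the TMM-scaled library size) in anti-Ang2 libraries and from 18692 to 21863 CPM in IgG libraries. Prox1, the transcription factor that defines LEC, had 979.7 to 1343 CPM in anti-Ang2 and 1183 to 1389.9 CPM in IgG libraries. The LEC markers Ccl21a and Nrp2 were lower after anti-Ang2 (log2 fold changes -1.22 and -1.49, adjusted p = 0.00447 and 0.00142 by edgeR). The summed level of 12 melanoma markers was 5594, 3984, 4590.3, 1722 and 1136 CPM in anti-Ang2 1 to 5 and 441, 1757, 269, 1869.7 and 580.3 CPM in IgG 1 to 5. That of 15 macrophage and monocyte markers was 251, 107, 277, 171 and 71.6 CPM in anti-Ang2 1 to 5 and 203, 51.6, 77.9, 81.9 and 56.8 CPM in IgG 1 to 5. In a principal component analysis anti-Ang2 5 stood apart on the second component and anti-Ang2 4 on the third, and these libraries had the lowest limma quality weights (0.417 and 0.606, the others 0.911 to 1.43). Class medians and spreads are given with and without them.

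None of the 35 members passed the test between anti-Ang2 and IgG (edgeR quasi-likelihood, Benjamini-Hochberg adjusted p under 0.05 over 16240 genes). Of all tested genes 4.13% passed, 1.34% as higher and 2.8% as lower after anti-Ang2. At an unadjusted p under 0.05 there was 1 member, Ifi30, against 2962 of all tested genes. DESeq2 called 1 member, Ifi30, and limma-voom with quality weights called 2, Ifi30 and Ctss. Both tools also called more genes than edgeR in all, DESeq2 780 higher and 888 lower and limma-voom 670 higher and 780 lower. In simulated data 25.6% of DESeq2 calls were false. In 0 of 35 members did the 5 anti-Ang2 libraries all lie on one side of the 5 IgG libraries, against 6.1% of all tested genes. The median log2 fold change (anti-Ang2 over IgG) was 0.31 over the 35 members, with 26 above 0, and 0.01 over all tested genes. A p that misses the threshold does not show equal levels, and the 95% interval lay within a 2-fold change in both directions for 18 members, against 61.1% of all tested genes.

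**Figure D1:**
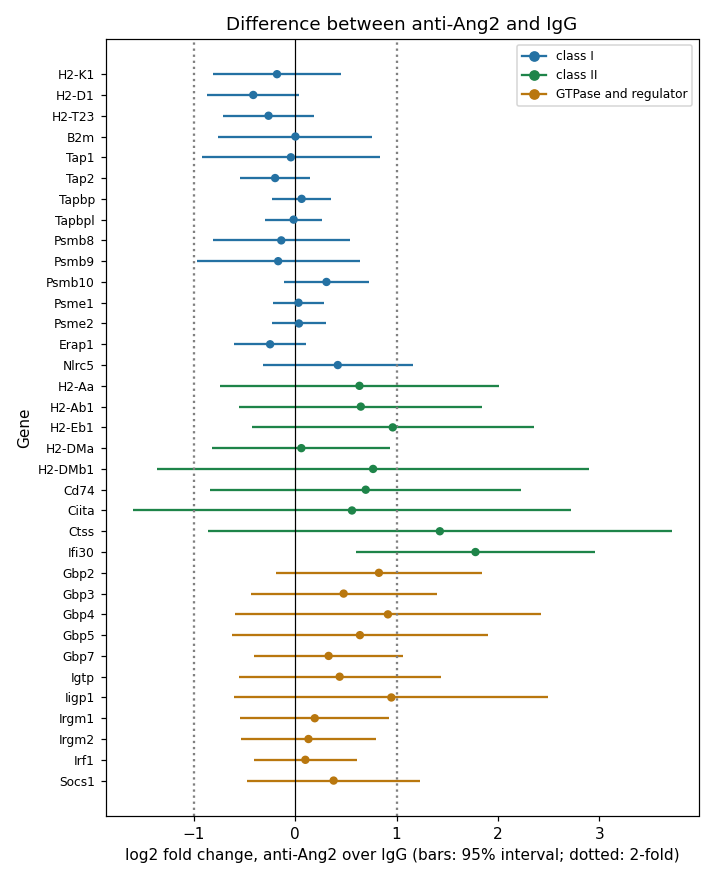
Log2 fold change of the 35 members, anti-Ang2 over IgG, with points for the edgeR estimate and bars for its 95% interval (n = 5 libraries a group; dotted lines mark a 2-fold change). The class I genes lie between -0.41 and 0.42 with mostly narrow bars, while the class II genes and the GTPases and regulators all lie above 0 with bars that, except for Ifi30, cross 0.

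Class I transcripts had group means close to each other. Of the 15 genes 9 had a log2 fold change below 0 and 6 above, with a median of -0.04, and 14 of the 15 intervals lay within a 2-fold change. The furthest from 0 were H2-D1 at -0.41 ± 0.21 (SE; adjusted p = 0.332 by edgeR) and Nlrc5 at 0.42 ± 0.34 (adjusted p = 0.583 by edgeR). In bulk RNA, fewer cells that carry a transcript and less of it per cell cannot be told apart.

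Among the molecules that hold the peptide, the classical heavy chain H2-K1 had 859.7, 1157, 823, 819.6 and 2117 CPM in anti-Ang2 1 to 5, against 1170.2, 1109.6, 1918, 1463 and 878 CPM in IgG 1 to 5. Its log2 fold change was -0.18 ± 0.29 (95% interval -0.81 to 0.46). The groups overlapped, and anti-Ang2 5 held the highest value while anti-Ang2 1, 3 and 4 lay below every IgG library. B2m, the invariant light chain of class I, had 1297, 1627, 1196, 1601 and 4178 CPM in anti-Ang2 1 to 5, against 1995, 1607, 2592, 2519.9 and 1169 CPM in IgG 1 to 5. Only anti-Ang2 5 lay above every IgG library, and the group means were almost equal at 1980.1 ± 1243 CPM in anti-Ang2 and 1977 ± 605 CPM in IgG (SD, n = 5 each). H2-D1, the other classical heavy chain of this strain, averaged 1798 ± 576 CPM in anti-Ang2 and 2394 ± 502 CPM in IgG libraries. H2-T23, which encodes the non-classical molecule Qa-1 that is read by NK cell receptors, averaged 245 ± 85.8 CPM in anti-Ang2 and 294 ± 46.6 CPM in IgG libraries. Per transcript length, B2m was the most abundant member, with 2419 ± 1573 FPKM in anti-Ang2 and 2373 ± 754 FPKM in IgG libraries.

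Tap1, a subunit of the pump that moves peptides into the endoplasmic reticulum, had 101, 222, 74.2, 55.3 and 242 CPM in anti-Ang2 1 to 5, against 122, 116, 218, 166 and 92.1 CPM in IgG 1 to 5. Anti-Ang2 2 and 5 lay above every IgG library and anti-Ang2 3 and 4 below every one. Its log2 fold change was -0.04 ± 0.40 (95% interval -0.92 to 0.83). The partner subunit Tap2 ran from 108 to 186 CPM in anti-Ang2 libraries and from 139 to 196 CPM in IgG libraries. Tapasin (Tapbp), which bridges the pump to class I molecules, averaged 441 ± 93.6 CPM in anti-Ang2 and 422 ± 29.7 CPM in IgG libraries, and the related peptide editor Tapbpl 35.1 ± 4.26 CPM in anti-Ang2 and 35.5 ± 5.38 CPM in IgG libraries. Erap1, which trims peptides to length, averaged 71.9 ± 16.8 CPM in anti-Ang2 and 85.3 ± 13.0 CPM in IgG libraries.

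The immunoproteasome subunits, which replace catalytic subunits of the standard proteasome, had log2 fold changes on both sides of 0. Psmb8 averaged 64.8 ± 30.6 CPM in anti-Ang2 and 71.2 ± 23.4 CPM in IgG libraries, and Psmb9 49.4 ± 32.1 CPM in anti-Ang2 and 55.4 ± 15.6 CPM in IgG libraries. Psmb10 averaged 78.9 ± 24.2 CPM in anti-Ang2 and 63.7 ± 8.91 CPM in IgG libraries, a log2 fold change of 0.31 ± 0.19 (adjusted p = 0.442 by edgeR). The proteasome activators Psme1 and Psme2 had the narrowest intervals of the list (-0.21 to 0.28 and -0.23 to 0.31 on the log2 scale). In mm10, chromosome 17 holds Psmb9 from 34181987 to 34187764 (minus strand) and Tap1 from 34187553 to 34197225 (plus strand). Their RefSeq starts are 226 bases apart and their exons overlap in the annotation. As the kit does not mark the strand, reads in that overlap cannot be assigned to either gene.

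Nlrc5, the transactivator of class I genes, had 30.8, 61.3, 36.3, 26.6 and 94.3 CPM in anti-Ang2 1 to 5, against 34.4, 36.1, 49.6, 43.4 and 22.7 CPM in IgG 1 to 5. Anti-Ang2 2 and 5 lay above every IgG library, and the other anti-Ang2 libraries lay among them. Without anti-Ang2 5, the class I median log2 fold change was -0.28 with 3 of 15 genes above 0, and the lowest adjusted p of the class was 0.0684 by edgeR. Without both anti-Ang2 4 and 5 it was -0.18 with 5 above 0. It was between 0.0092 and 0.046 when IgG 3, IgG 4, anti-Ang2 3 or anti-Ang2 4 was left out, with 8 or 9 above 0.

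The class II genes all had a mean above that of IgG, but their spread between mice was wide in both groups. Their log2 fold changes ran from 0.06 to 1.78 with a median of 0.70, and 1 of 9 intervals lay within a 2-fold change. H2-Ab1, the beta chain of the class II molecule I-A, had 33.9, 53.6, 51.2, 36.5 and 107 CPM in anti-Ang2 1 to 5, against 68.9, 13.7, 52.5, 38.7 and 6.65 CPM in IgG 1 to 5. The highest value was in anti-Ang2 5, the next in IgG 1, and the lowest values were in IgG 2 and IgG 5. Cd74, the invariant chain that escorts class II molecules to endosomes, had 49.7, 91.4, 70.0, 68.7 and 292 CPM in anti-Ang2 1 to 5, against 140.0, 17.7, 110.4, 75.6 and 9.46 CPM in IgG 1 to 5. It followed the same order at both ends, and its log2 fold change was 0.70 ± 0.70 (95% interval -0.84 to 2.23). Ciita, the transactivator of class II genes, had 0.425, 8.50, 0.634, 2.90 and 9.65 CPM in anti-Ang2 1 to 5, against 7.23, 1.18, 5.35, 1.06 and 0.179 CPM in IgG 1 to 5. Both groups held libraries near 0 and libraries above 5 CPM, so their ranges overlapped widely. Anti-Ang2 2 and 5 lay above every IgG library, and the other anti-Ang2 libraries lay among them.

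The other class II molecules also overlapped between the groups. H2-Aa, the alpha chain of I-A, averaged 18.1 ± 11.9 CPM in anti-Ang2 and 11.7 ± 9.95 CPM in IgG libraries. H2-Eb1, a beta chain of the class II isotype I-E, averaged 22.5 ± 17.6 CPM in anti-Ang2 and 11.6 ± 9.18 CPM in IgG libraries. H2-DMa and H2-DMb1 encode the chains of the peptide exchange factor H2-DM. H2-DMa averaged 4.32 ± 1.62 CPM in anti-Ang2 and 4.15 ± 2.44 CPM in IgG libraries, and H2-DMb1 5.64 ± 7.81 CPM in anti-Ang2 and 3.31 ± 2.67 CPM in IgG libraries. In 6 of the 9 class II pathway genes anti-Ang2 5 held the highest of the 10 values, and in 7 of 9 IgG 5 held the lowest. Of all tested genes 17.3% were highest in anti-Ang2 5, and the share lowest in IgG 5 was not counted. Without anti-Ang2 5 the class median log2 fold change was 0.16 with 6 of 9 genes above 0, and without both anti-Ang2 4 and 5 it was 0.22 with 6 above 0. IgG libraries moved it as well. The median was 0.45 without IgG 2 and 0.41 without IgG 5, with 8 of 9 above 0 each time, and 1.19 without IgG 1 with 9 above 0.

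The summed markers of macrophages, dendritic cells and B cells were not highest in the library in which the class II molecules other than H2-DMa were. In anti-Ang2 5, where H2-Ab1 and Cd74 were highest, the macrophage sum was 71.6 CPM, the B cell sum over the 6 markers in the table was 0 CPM, and the dendritic cell markers Flt3, Itgax and Siglech were at 0, as in 7, 7 and 9 of the 10 libraries in all. In the same library the dendritic cell marker Xcr1 had 1.12 CPM, Clec9a 0.638 CPM and Batf3 1.20 CPM. The macrophage marker Cd163 was highest in anti-Ang2 5 with 1.66 CPM, and no other macrophage marker was highest there. Cd163 had 0.249 to 0.801 CPM in the other anti-Ang2 libraries, 0.486 CPM in IgG 5 and 0 CPM in IgG 1 to 4. Xcr1 was highest in anti-Ang2 5 and next in IgG 1 with 0.535 CPM, the order that H2-Ab1 also had, and it was at 0 in 6 of the 10 libraries. The dendritic cell sum over 9 markers ran from 42.4 to 64.3 CPM in anti-Ang2 and from 72.9 to 147 CPM in IgG libraries, and most of it was Zbtb46 (39.4 to 57.5 CPM in anti-Ang2 and 67.5 to 144 CPM in IgG libraries), which endothelial cells also express. In IgG 1, the IgG library of highest Cd74, the macrophage sum was 203 CPM, the highest of the IgG group. The part of other cells in the class II levels was not tested beyond these sums.

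Ifi30 and Ctss, which act on the endosomal side of the pathway, had a different layout from the class II molecules. Ifi30, a thiol reductase that unfolds antigens, had 25.1, 24.5, 27.4, 15.4 and 5.28 CPM in anti-Ang2 1 to 5, against 3.48, 8.81, 1.56, 10.7 and 3.89 CPM in IgG 1 to 5. Anti-Ang2 1 to 4 lay above every IgG library and anti-Ang2 5 among them. Its log2 fold change was 1.78 ± 0.54 (SE), with the lowest adjusted p of the 35 members (0.0942 by edgeR), and it is shown in full because of that value. In the authors' deposited table its log2 fold change was 1.46 with an adjusted p of 0.00725, the only member under 0.05 there. Across the 10 libraries Ifi30 ran in nearly the same order as the melanoma sum, which was highest in anti-Ang2 1 to 3 and lowest in IgG 3. With the melanoma sum as a covariate its log2 fold change was 0.20 ± 0.29 (adjusted p = 0.813 by edgeR). That sum lay above every IgG library in 3 anti-Ang2 libraries, so this fit cannot separate it from treatment. The part of tumour cells in the Ifi30 level was not tested.

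Ctss, the protease cathepsin S that degrades the invariant chain, had 18.5, 7.75, 19.5, 28.8 and 6.30 CPM in anti-Ang2 1 to 5, against 25.1, 0.761, 1.99, 2.28 and 0.0767 CPM in IgG 1 to 5. IgG 1 stood with the highest anti-Ang2 libraries, and the other IgG libraries lay below all anti-Ang2 libraries. Its log2 fold change was 1.43 ± 1.04 (adjusted p = 0.536 by edgeR), and without IgG 1 it was 3.67 ± 0.78 (adjusted p = 0.0286 by edgeR). The 4 libraries with the most Ctss, IgG 1 and anti-Ang2 1, 3 and 4, were those with the highest macrophage sums (171 to 277 CPM), where Lyz2, the most abundant of those markers, had 79.4 to 110.3 CPM. Of the 15 macrophage markers 14 were detected in at least 6 libraries, and Fcgr1 was at 0 in anti-Ang2 2 and 5 and IgG 2, 4 and 5. With the macrophage sum as a covariate the log2 fold change of Ctss was 1.06 ± 0.63 (adjusted p = 0.543 by edgeR).

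**Figure D2:**
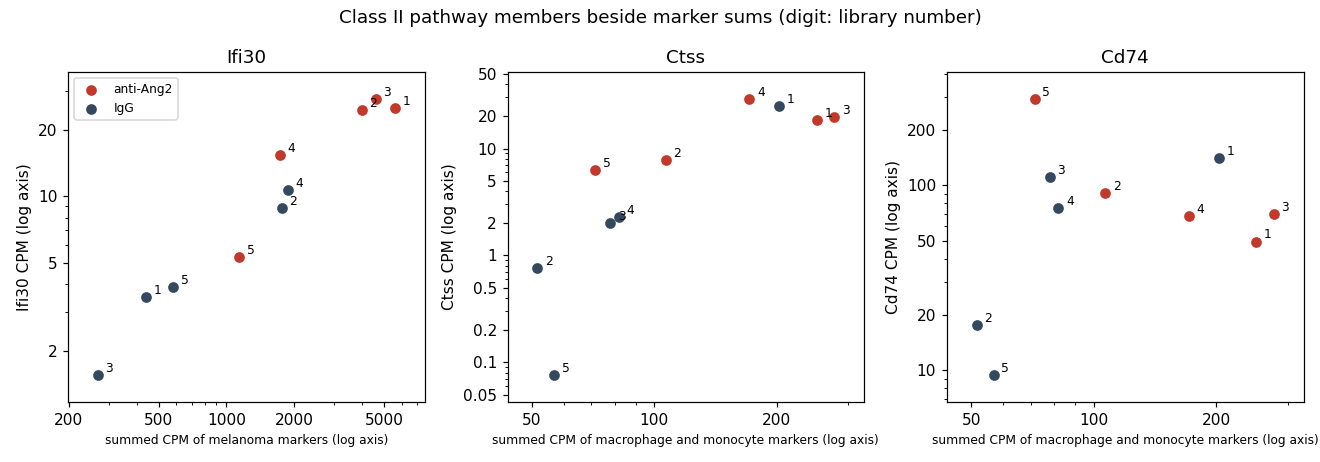
Levels of Ifi30, Ctss and Cd74 (CPM, log axes) against the summed CPM of melanoma markers or of macrophage and monocyte markers, 1 point per library, with the library number beside it. Ifi30 is highest in anti-Ang2 1 to 3, where the melanoma sum is highest, Ctss is highest in the 4 libraries of highest macrophage sum, and Cd74 is highest in anti-Ang2 5, where the macrophage sum is 71.6 CPM.

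The GTPases and regulators differed more among the anti-Ang2 mice than between the groups. All 11 had a log2 fold change above 0, from 0.10 for Irf1 to 0.95 for Iigp1 with a median of 0.44, and the lowest adjusted p was 0.392 by edgeR. In anti-Ang2 2 and in anti-Ang2 5 all 11 lay above every IgG library, and in anti-Ang2 4 all 11 lay below every IgG library. Of all tested genes 23.7% lay above every IgG library in anti-Ang2 2, 26.2% in anti-Ang2 5 and 7.54% in both, and 22.1% lay below in anti-Ang2 4. All 3 conditions together were met by 11 of 11 GTPases and regulators, 3 of 15 class I genes, 0 of 9 class II genes and 92 of the 16240 tested genes (0.567%). This layout was noticed in the values of these libraries and is a description of 10 mice.

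Gbp2, a guanylate-binding protein that coats vacuoles of pathogens, had 186, 326, 90.8, 50.6 and 308 CPM in anti-Ang2 1 to 5, against 146, 72.3, 135, 128 and 61.1 CPM in IgG 1 to 5. Anti-Ang2 1, 2 and 5 lay above every IgG library and anti-Ang2 4 below every one, and the log2 fold change was 0.83 ± 0.46 (95% interval -0.19 to 1.84). Iigp1, an immunity-related GTPase and the member of this class with the largest fold change, had 149.7, 682, 77.5, 52.7 and 818 CPM in anti-Ang2 1 to 5, against 151, 119, 274, 288 and 89.9 CPM in IgG 1 to 5. Its highest anti-Ang2 library held 15.5 times the level of the lowest, against 3.20 times in IgG. The log2 fold change was 0.95 ± 0.71 (adjusted p = 0.543 by edgeR).

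Irf1, the transcription factor that carries the interferon signal to ISRE promoters, had 89.8, 169, 90.4, 85.8 and 169 CPM in anti-Ang2 1 to 5, against 92.6, 89.8, 131, 145 and 105 CPM in IgG 1 to 5. Anti-Ang2 2 and 5 were the highest of the 10 libraries, and the log2 fold change was 0.10 ± 0.23 (95% interval -0.41 to 0.61). Socs1, the inhibitor of Jak kinases that ends the signal, had 6.51, 16.5, 8.03, 5.72 and 22.4 CPM in anti-Ang2 1 to 5, against 10.4, 6.64, 13.0, 9.39 and 5.98 CPM in IgG 1 to 5. It was again highest in anti-Ang2 2 and 5 and lowest in anti-Ang2 4.

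The guanylate-binding proteins Gbp3, Gbp4, Gbp5 and Gbp7 were likewise above every IgG library in anti-Ang2 2 and 5 and below every one in anti-Ang2 4. Gbp3 averaged 89.0 ± 60.5 CPM in anti-Ang2 and 63.8 ± 14.5 CPM in IgG libraries, and Gbp4 125 ± 129.8 CPM in anti-Ang2 and 66.3 ± 30.5 CPM in IgG libraries. Gbp5 averaged 40.7 ± 37.9 CPM in anti-Ang2 and 26.1 ± 7.49 CPM in IgG libraries, and Gbp7 171 ± 101 CPM in anti-Ang2 and 136 ± 19.0 CPM in IgG libraries. Among the immunity-related GTPases, Igtp averaged 84.1 ± 60.5 CPM in anti-Ang2 and 62.1 ± 22.1 CPM in IgG libraries. Irgm1 and Irgm2 guard host membranes against the effector GTPases. Irgm1 averaged 138 ± 76.3 CPM in anti-Ang2 and 120.4 ± 26.0 CPM in IgG libraries, and Irgm2 92.1 ± 43.0 CPM in anti-Ang2 and 84.1 ± 22.6 CPM in IgG libraries. Igtp and Irgm2 share exon sequence on the same strand, and Gbp4 overlaps Gbp8 and Gbp9, so their reads may be split between neighbours. These families also hold close paralogs, and the levels of single members are uncertain to that extent.

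**Figure D3:**
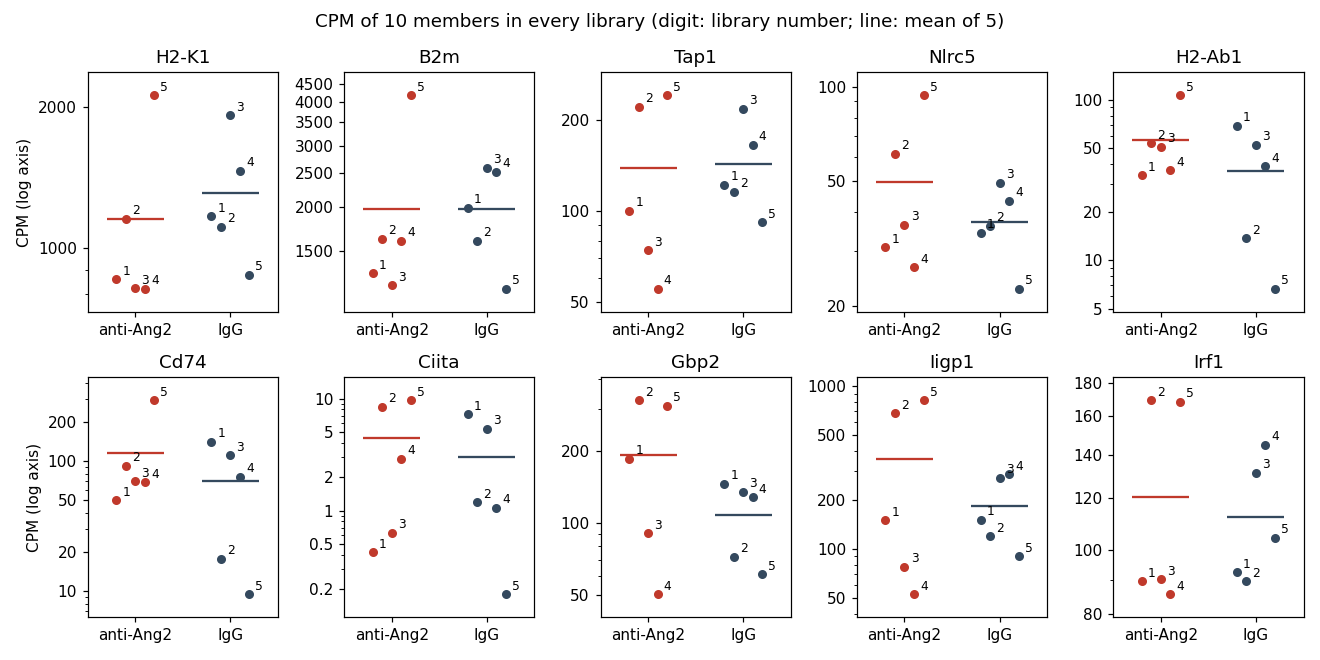
CPM (log axes) of 10 members in every library, with anti-Ang2 left and IgG right in each panel, the library number beside each point and a line at the mean of 5. Anti-Ang2 2 and 5 lie above every IgG library for Tap1, Nlrc5, Ciita, Gbp2, Iigp1 and Irf1. Anti-Ang2 5 alone does so for H2-K1, B2m, H2-Ab1 and Cd74.

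The group means of this class rested on those libraries. Without anti-Ang2 5 the median log2 fold change of the 11 genes was 0.05 with 8 above 0, without anti-Ang2 2 it was 0.21 with 8 above 0, and without anti-Ang2 4 it was 0.65 with 11 above 0. With quality weights in limma-voom, which lower the weight of anti-Ang2 5 and 4, it was 0.08 with 7 above 0. Without both anti-Ang2 4 and 5 it was 0.26 with 11 above 0, and no member of the class passed in any of these fits.

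The spread between mice was larger after anti-Ang2 in 26 of the 35 members, against 60.2% of all tested genes. For the 11 GTPases and regulators the SD of log2 CPM was larger in anti-Ang2 libraries in 11 of 11, with a median of 1.08 in anti-Ang2 and 0.45 in IgG. For class I it was larger in 14 of 15, with a median of 0.43 in anti-Ang2 and 0.23 in IgG, but this count rested on anti-Ang2 5. In the class II genes it was larger in 1 of 9, Ciita, with a median of 0.93 in anti-Ang2 and 1.49 in IgG. Over all tested genes the median SD was 0.32 in anti-Ang2 and 0.26 in IgG. Without anti-Ang2 5, an alternative chosen after seeing the data, the SD was larger in anti-Ang2 for 20 of the 35 members, against 8128 of the 16240 tested genes. Class I then had 9 of 15, with H2-K1, H2-D1, B2m, Psmb8 and Psme1 joining Tapbpl as the genes of no larger spread, and a median of 0.33 in anti-Ang2. The class II genes had 0 of 9 and a median of 0.37 in anti-Ang2 without that library. The GTPases and regulators kept 11 of 11 without anti-Ang2 5, without anti-Ang2 4 and without both, with medians of 0.93, 0.86 and 0.86 in anti-Ang2. Without both libraries the SD was larger for 22 of the 35 members, 10 of 15 in class I and 1 of 9 in class II, against 37.7% of all tested genes. No test of these spreads was made.

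**Figure D4:**
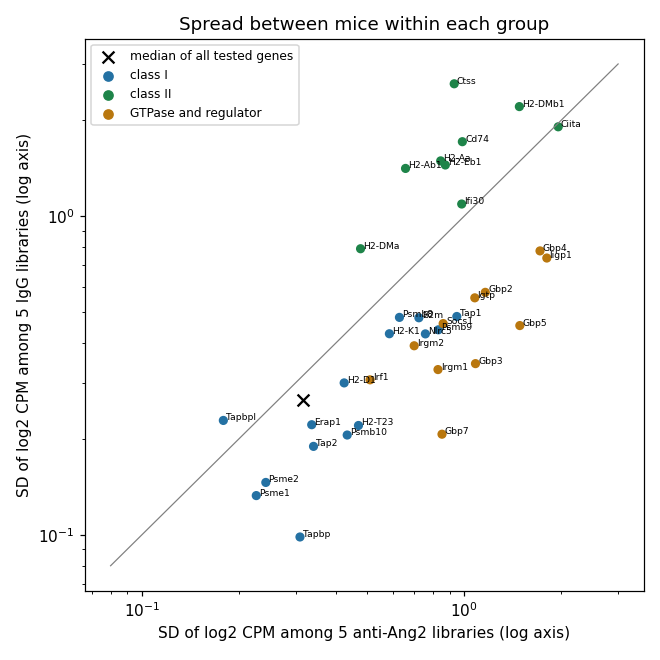
SD of log2(CPM + 0.1) among the 5 anti-Ang2 libraries (x axis) and among the 5 IgG libraries (y axis), both on log axes, 1 point per gene, with a line of equality and a cross at the medians of all tested genes (0.32 and 0.26). All 11 GTPases and regulators lie to the right of the line, and 8 of the 9 class II genes lie above it.

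Class I genes shared part of the layout of the GTPases. In anti-Ang2 5, 11 of the 15 lay above every IgG library, and in anti-Ang2 2 this held for 5. In anti-Ang2 4, 10 lay below every IgG library, and in anti-Ang2 3 this held for 9. Of all tested genes 22.1% lay below in anti-Ang2 4 and 22.1% in anti-Ang2 3. Tap1, Tapbp and Psme2 met all 3 conditions named above for the GTPases. Levels of T and NK cell markers, the cells that make interferon gamma, were low in these libraries. Their sum over 12 markers was 29.1, 19.0, 32.7, 24.8 and 29.7 CPM in anti-Ang2 1 to 5, against 40.1, 33.7, 26.7, 33.2 and 27.1 CPM in IgG 1 to 5, with Lck, Prf1 and Cd2 as the largest terms. Prf1, which encodes the cytotoxic pore protein perforin, was the 1 marker that passed of the 5 tested. It had 4.11, 6.57, 7.82, 8.35 and 6.48 CPM in anti-Ang2 1 to 5, against 4.21, 3.19, 3.30, 2.71 and 1.59 CPM in IgG 1 to 5, a log2 fold change of 1.15 ± 0.29 (adjusted p = 0.0490 by edgeR). All anti-Ang2 libraries except anti-Ang2 1 lay above every IgG library. When single libraries were left out its adjusted p ran from 0.0372 to 0.115 by edgeR, and it passed only without anti-Ang2 1 or without IgG 1. The part of such cells in the members' levels was not tested. Cd3e, Cd3d, Cd4 and Cd8a were at 0 in anti-Ang2 2, 4 and 5 alike, and in 6, 6, 4 and 6 of the 10 libraries in all. In anti-Ang2 2, 4 and 5, Cd3g had 0.104, 0.267 and 0 CPM and Cd8b1 0.0832, 0 and 0.281 CPM. The cells were sorted as LEC, so these values do not measure the T cells of the tumour. The interferon gamma gene Ifng was among 22 listed genes of interferon gamma signalling, of which 20 were tested and 0 passed by edgeR. Its own values are not shown here.

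**Figure D5:**
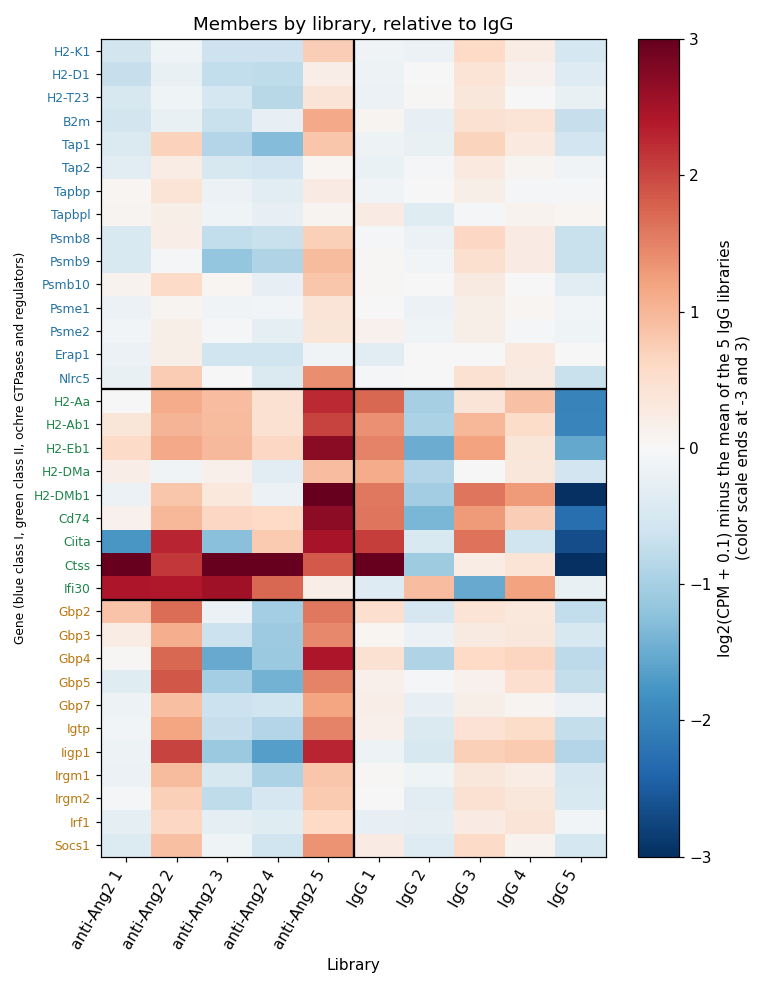
Heat map of the 35 members (rows, grouped as class I, class II, and GTPases and regulators) in the 5 anti-Ang2 libraries (left) and the 5 IgG libraries (right), as log2(CPM + 0.1) minus the mean of the IgG libraries, with the scale ending at -3 and 3. The GTPases and regulators are red in anti-Ang2 2 and 5 and blue in anti-Ang2 4. The class II molecules other than H2-DMa are darkest red in anti-Ang2 5 and dark blue in IgG 5.

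Genes around the members were read from lists written from textbook knowledge. Of 20 tested genes of interferon gamma signalling, 0 passed by edgeR, DESeq2 or limma-voom and 3 had an unadjusted p under 0.05, with a median log2 fold change of 0.13. The receptor subunits Ifngr1 and Ifngr2 differed little (log2 fold changes -0.11 ± 0.08 and 0.13 ± 0.08). The chemokine Cxcl9, which attracts T cells, had 3.28, 6.65, 1.71, 0.0953 and 56.1 CPM in anti-Ang2 1 to 5, against 13.2, 0.905, 2.07, 14.4 and 0.384 CPM in IgG 1 to 5. Its highest value was in anti-Ang2 5 and its lowest in anti-Ang2 4. Cd274, which encodes the T cell inhibitor PD-L1, averaged 25.4 ± 16.1 CPM in anti-Ang2 and 14.4 ± 5.21 CPM in IgG libraries (adjusted p = 0.372 by edgeR).

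Of 13 other tested immune GTPases, 0 passed by edgeR, DESeq2 or limma-voom, 0 had an unadjusted p under 0.05, and the median log2 fold change was 0.52. In anti-Ang2 5, 12 of them lay above every IgG library, and in anti-Ang2 2 this held for 10. Of all tested genes 26.2% lay above every IgG library in anti-Ang2 5 and 23.7% in anti-Ang2 2. Of 28 tested genes of the type I interferon response, 0 passed by these 3 tools and 2 had an unadjusted p under 0.05, with a median of -0.03. They were above every IgG library in 18 cases in anti-Ang2 2 and in 10 cases in anti-Ang2 5, and below in 17 cases in anti-Ang2 1 and 17 cases in anti-Ang2 4. Of all tested genes 22.1% lay below every IgG library in anti-Ang2 1 and 22.1% in anti-Ang2 4. The type I genes thus put anti-Ang2 1 beside anti-Ang2 4, whereas 0 of the 11 member GTPases and regulators lay below every IgG library in anti-Ang2 1. In that library 5 of the 15 class I members and 2 of the 13 other immune GTPases lay below. In anti-Ang2 3, 11 of the 28 type I genes and 6 of the 11 member GTPases and regulators lay below, against 22.1% of all tested genes.

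Of 24 tested class I chaperones and standard proteasome subunits, 0 passed by the 3 tools, 1 had an unadjusted p under 0.05, and all 24 intervals lay within a 2-fold change. Of 13 other tested class I and class I-like molecules, 0 passed by edgeR or limma-voom, DESeq2 called 1 lower (Fcgrt), 3 had an unadjusted p under 0.05, and the median was -0.27. Among 15 tested genes of class II transcription, processing and turnover, 1 was higher and 1 lower after anti-Ang2 by edgeR, and 6 had an unadjusted p under 0.05, against 18.2% of all tested genes. DESeq2 called 2 higher and 1 lower, and limma-voom 3 higher and 1 lower. The further calls were the lysosomal proteases Ctsl, with 477 ± 51.2 CPM in anti-Ang2 and 376 ± 36.8 CPM in IgG libraries (adjusted p = 0.0708 by edgeR), and, by limma-voom alone, Ctsb, with 1960.5 ± 452 CPM in anti-Ang2 and 1426 ± 189 CPM in IgG libraries (adjusted p = 0.145 by edgeR). Cd40, the receptor through which T cells stimulate antigen-presenting and endothelial cells, had 27.8, 33.3, 33.5, 32.4 and 28.0 CPM in anti-Ang2 1 to 5, against 52.0, 47.8, 57.2, 45.5 and 38.1 CPM in IgG 1 to 5. All anti-Ang2 libraries lay below all IgG libraries, and Cd40 fell by 0.64 ± 0.12 on the log2 scale (adjusted p = 0.0106 by edgeR). With the melanoma sum as a covariate its log2 fold change was -0.56 ± 0.17 (adjusted p = 0.177 by edgeR). Cd86, a costimulatory ligand of T cells, rose, though at levels near 0 (adjusted p = 0.00793 by edgeR). It had 23 to 85 counts per library and 234 in all in anti-Ang2, against 3 in all in IgG with 4 of 5 libraries at 0, a ratio scaled to library size of 78.7 (95% interval 26.6 to 384, counting error only).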

How the data were processed

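RNA of LEC sorted from tumours of 10 mice was sequenced, with groups taken from the treatment label. Per the labels, the kits were PicoPure for RNA, SMART-Seq v4 for cDNA, without strand information, and NEBNext ChIP-Seq for the library. STAR, featureCounts, DESeq2 and mm10 are named in the submitters' processing notes, with versions and annotation release not given in the sources used here. The authors deposited raw gene counts, which were the input of every test, and FPKM, which were used only to compare levels between genes. The log2 fold changes and adjusted p-values of the authors' deposited table are quoted once. A further 10 columns of values per sample were not used. Library totals were 38090933 to 83850341 counts, and every pair of libraries differed by more than counting noise (chi-square over degrees of freedom at least 50.9). Intervals on counts cover counting error only.

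Counts were tested with edgeR 4.0.16 in R 4.3.3 by its two-sided quasi-likelihood test on treatment alone, after TMM scaling and the filterByExpr filter (count of 10, total of 15). The Benjamini-Hochberg adjustment ran over all 16240 tested genes, and a gene was called at an adjusted p under 0.05. SE and 95% intervals were taken from that fit. CPM used the TMM scaling, and SDs on the log2 scale used log2(CPM + 0.1). The script was tested on simulated data with 200 genes changed by known folds. There 3.23% of edgeR calls, 1.1% of limma-voom calls and 25.6% of DESeq2 calls were false. Of the genes changed 2-fold, edgeR recovered 50.7%. Alternatives were DESeq2 1.42.0, limma-voom 3.58.1 with quality weights, RLE normalization, no filter, each library left out, anti-Ang2 4 and 5 left out together, a marker sum as covariate, and a replicate block. Tables used pandas 2.3.3 and scipy 1.17.1 in Python 3.11.15, and figures used matplotlib 3.10.9. Gene spans are from GENCODE M21 on mm10, and promoters are from RefSeq on GRCm38.p6.

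All 35 members are named, and 10 of them, with any that passed, get the value of every library. Ifi30, Ctss, Iigp1 and the neighbouring genes shown by library were added for their values. The members, the marker and pathway lists and the tests were chosen with earlier results of these data known.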

Additional observations from a re-analysis of the deposited data

Results flagged for a closer look

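Among 70 sets of 5 values (35 members in 2 groups), 3 held a value whose gap to its nearest neighbour exceeded Dixon's 95% limit of 0.71 of the range, where chance alone would give about 1 set in 20. All 3 were in anti-Ang2 5. B2m had 4178 CPM there, with 1196 to 1627 CPM in the other anti-Ang2 libraries. H2-Eb1 had 53.6 CPM there, with 12.1 to 18.0 CPM in the other anti-Ang2 libraries. H2-DMb1 had 19.6 CPM there, with 1.56 to 3.26 CPM in the other anti-Ang2 libraries.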

How the results depend on the processing

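Over 35 members and 18 alternatives, 6 of 630 values passed the threshold, all for Ifi30 or Ctss. The log2 fold change crossed 0 under at least 1 alternative in 16 members, each time short of the threshold, and the causes were not tested. The number of class II genes called higher, 0 in the edgeR test, was 1 with DESeq2 (Ifi30, 1.79, adjusted p = 0.00724), 2 with limma-voom (Ctss 3.73, adjusted p = 0.0332, and Ifi30 2.12, adjusted p = 0.0262), 1 without both anti-Ang2 4 and 5 (Ifi30, 2.16, adjusted p = 0.0365), and 0 to 1 when single libraries were left out (Ctss 3.67 without IgG 1 and Ifi30 2.02 without anti-Ang2 5, adjusted p = 0.0286 and 0.0395 by edgeR). Over all alternatives the adjusted p of Ifi30 ran to 0.813 and that of Ctss to 0.717. No class I gene and no GTPase or regulator passed under any alternative.

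Of all genes, 217 were called higher and 454 lower by edgeR. DESeq2 gave 780 and 888, limma-voom 670 and 780, the macrophage covariate 45 and 165, the melanoma covariate 24 and 91, and the replicate block 82 and 268. Without both anti-Ang2 4 and 5, 531 were higher. Leaving out single libraries gave 82 (without IgG 3) to 326 (without anti-Ang2 5) higher and 259 (without IgG 3) to 468 (without anti-Ang2 5) lower. The replicate block used the numbers in the titles; the library descriptions number the mice otherwise and share no number between the groups, so no block could be built on those. Same-numbered libraries did not deviate together (correlations -0.125 to 0.113), so the numbers were not taken as pairs. Cd86 had an adjusted p of 0.0611 under the replicate block.

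The log2 fold changes that crossed 0 were as follows. With the macrophage covariate H2-K1 was 0.041, Tap1 0.23, Psmb8 0.075, Psmb9 0.058 and H2-DMa -0.048. With the melanoma covariate H2-K1 was 0.23, Tap1 0.29, Tapbpl 0.032, Psmb8 0.23 and Psmb9 0.23. With limma-voom B2m was -0.30, Tapbpl 0.051, Psme1 -0.031, Gbp5 -0.077, Irgm1 -0.024, Irgm2 -0.057 and Irf1 -0.024. Without both anti-Ang2 4 and 5, B2m was -0.54, Tapbpl 0.022, Psme1 -0.079, H2-DMa -0.11, H2-DMb1 -0.50 and Cd74 -0.020. Without the filter B2m was -0.0092, and with the replicate block -0.15. When single libraries were left out, B2m ran from -0.47 to 0.14, Tap1 from -0.34 to 0.16, Tapbp from -0.038 to 0.15, Tapbpl from -0.095 to 0.051, Psmb8 from -0.43 to 0.046, Psmb9 from -0.63 to 0.012, Psme1 from -0.070 to 0.082 and Psme2 from -0.052 to 0.11. H2-DMa ran from -0.19 to 0.45, H2-DMb1 from -0.61 to 1.05, Cd74 from -0.012 to 1.10, Irgm1 from -0.064 to 0.38, Irgm2 from -0.075 to 0.30 and Irf1 from -0.053 to 0.21.

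H2-DMb1, Ciita and Ctss were under 1 CPM in some libraries, where depth limits their precision. With 1 library per mouse, the spread between mice cannot be told apart from that of sorting and amplification, and RNA levels do not measure protein at the cell surface.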
